A study of Mus musculus with 18 samples.

Results

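The genes described here encode the proteins of the mitochondrial ribosome, taken as every gene whose symbol begins with Mrpl (large subunit) or Mrps (small subunit) followed by a number, without the suffix that marks a pseudogene, and present in both deposited count tables. Of 35560 genes joined over those tables, 78 met this rule, 49 named for the large and 29 for the small subunit, and all 78 had enough counts to be tested. They were followed in heart RNA from 18 male wild-type C57BL/6 mice. All of these mice received isoproterenol (ISO), a beta-adrenergic agonist that strains the heart, injected under the skin each day at 2.5 mg/kg for 21 days. In the ISO group (n = 6) water was gavaged, in the ISO+100 nm PS group (n = 6) polystyrene (PS) particles of 100 nm, and in the ISO+1 µm PS group (n = 6) particles of 1 µm, both at 50 mg/kg a day over the same 21 days. The labels assign a library to a mouse, give no age, and describe no animals without ISO, so that every difference below lies between hearts that were all under ISO. The comparisons ask how each particle size differs from ISO alone, and whether the sizes differ from each other.

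Mitochondrial ribosomes translate the few messages of the mitochondrial genome, all of which code for subunits of the respiratory chain and ATP synthase. Their RNA is made inside the organelle, while every one of their proteins is encoded in the nucleus, made on cytosolic ribosomes and imported. In heart muscle, which lives on oxidative phosphorylation, inherited defects of several of these proteins cause cardiomyopathy.

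Libraries held 14032257 to 22600570 counts, 12 of them from one sequencing provider (batch 1: 3 ISO, 5 100 nm PS and 4 1 µm PS) and 6 from another (batch 2: 3, 1 and 2). Levels are given as CPM, counts scaled to a common library size by TMM, and a gene is said to have fallen or risen when its adjusted p was under 0.05 in edgeR's quasi-likelihood test with batch as a term and Benjamini-Hochberg adjustment over 14623 genes. ISO replicates 1 and 2 stood apart from the other libraries: ISO replicate 2 was the lowest of the 12 batch 1 libraries for 44.1% of all genes tested and the highest for 26.7%. The 6 ventricular cardiomyocyte markers summed to 24200 to 81800 CPM in ISO, 33300 to 75000 CPM in 100 nm PS and 38700 to 99200 CPM in 1 µm PS, which matches the heart label. The 4 skeletal muscle markers summed to 1.05 to 117 CPM in ISO, with the 117 CPM in ISO replicate 2, against 1.8 to 4.27 CPM in 100 nm PS and 1.36 to 3.9 CPM in 1 µm PS. The 3 red cell markers likewise peaked in ISO replicate 2, at 2840 CPM, against 230.0 to 1170.0 CPM over the PS libraries, while the 4 endothelial markers were lowest there, at 341 CPM, and the 3 mesothelial markers were at 0 in that library. The endothelial markers summed to 341 to 1360.0 CPM in ISO, 1150.0 to 2020.0 CPM in 100 nm PS and 1240.0 to 2020.0 CPM in 1 µm PS, with median log2 fold changes of 0.77 and 0.61, and none of the 4 passed. Without ISO replicate 2, 2 of them rose at 100 nm and 1 at 1 µm (all genes higher 5.01% and 4.83%). With all libraries, 1 atrial and 1 fibroblast marker rose at 100 nm, and 1 smooth muscle and pericyte marker rose at each size. At 100 nm 2 skeletal muscle markers fell. Of all genes, 3.88% and 2.89% passed as higher, and 5.69% and 4.5% as lower. The 4 atrial markers reached 3450.0 CPM in 100 nm PS replicate 1, against at most 918 CPM in ISO and 1 µm PS. Without that library 4 of the genes described here fell at 100 nm, with a median of −0.51, where 2.04% of all genes passed as lower. With all libraries 16 of them fell. Leaving out 100 nm PS replicate 2, 3, 4, 5 or 6 instead, 5, 6, 6, 9 and 2 of these 16 kept their calls. The shares of all genes that passed as lower were then 2.07%, 2.55%, 3.51%, 3.39% and 0.789%, against 5.69% with all libraries. The part of these cells in the results below was not tested, and in whole tissue fewer cells of a type and less RNA per cell cannot be told apart.

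A minority of the mitochondrial ribosomal protein genes fell in each PS group against ISO, and the size of the shift over the set rested largely on ISO replicate 2. At 100 nm 16 of the 78 genes fell and none rose, where 9.57% of all genes tested passed, 5.69% as lower and 3.88% as higher. At 1 µm 13 of 78 fell and none rose, where 7.39% of all genes passed, 4.5% as lower and 2.89% as higher. The 16 were 11 of 49 large subunit genes and 5 of 29 small subunit genes, and the 13 were 8 and 5. The fitted log2 fold change was below 0 for 73 of the 78 genes at 100 nm and for 72 at 1 µm. Its median over the 78 was −0.53 at 100 nm (range −1.35 to 0.31) and −0.49 at 1 µm (range −1.39 to 0.38), where the medians over all genes tested were −0.02 and 0.00. Without ISO replicate 2 the medians of the 78 were −0.16 and −0.17 (all genes −0.01 and 0.01). The SE of a single gene's log2 fold change had a median of 0.23 at 100 nm and 0.22 at 1 µm.

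**Figure D1:**
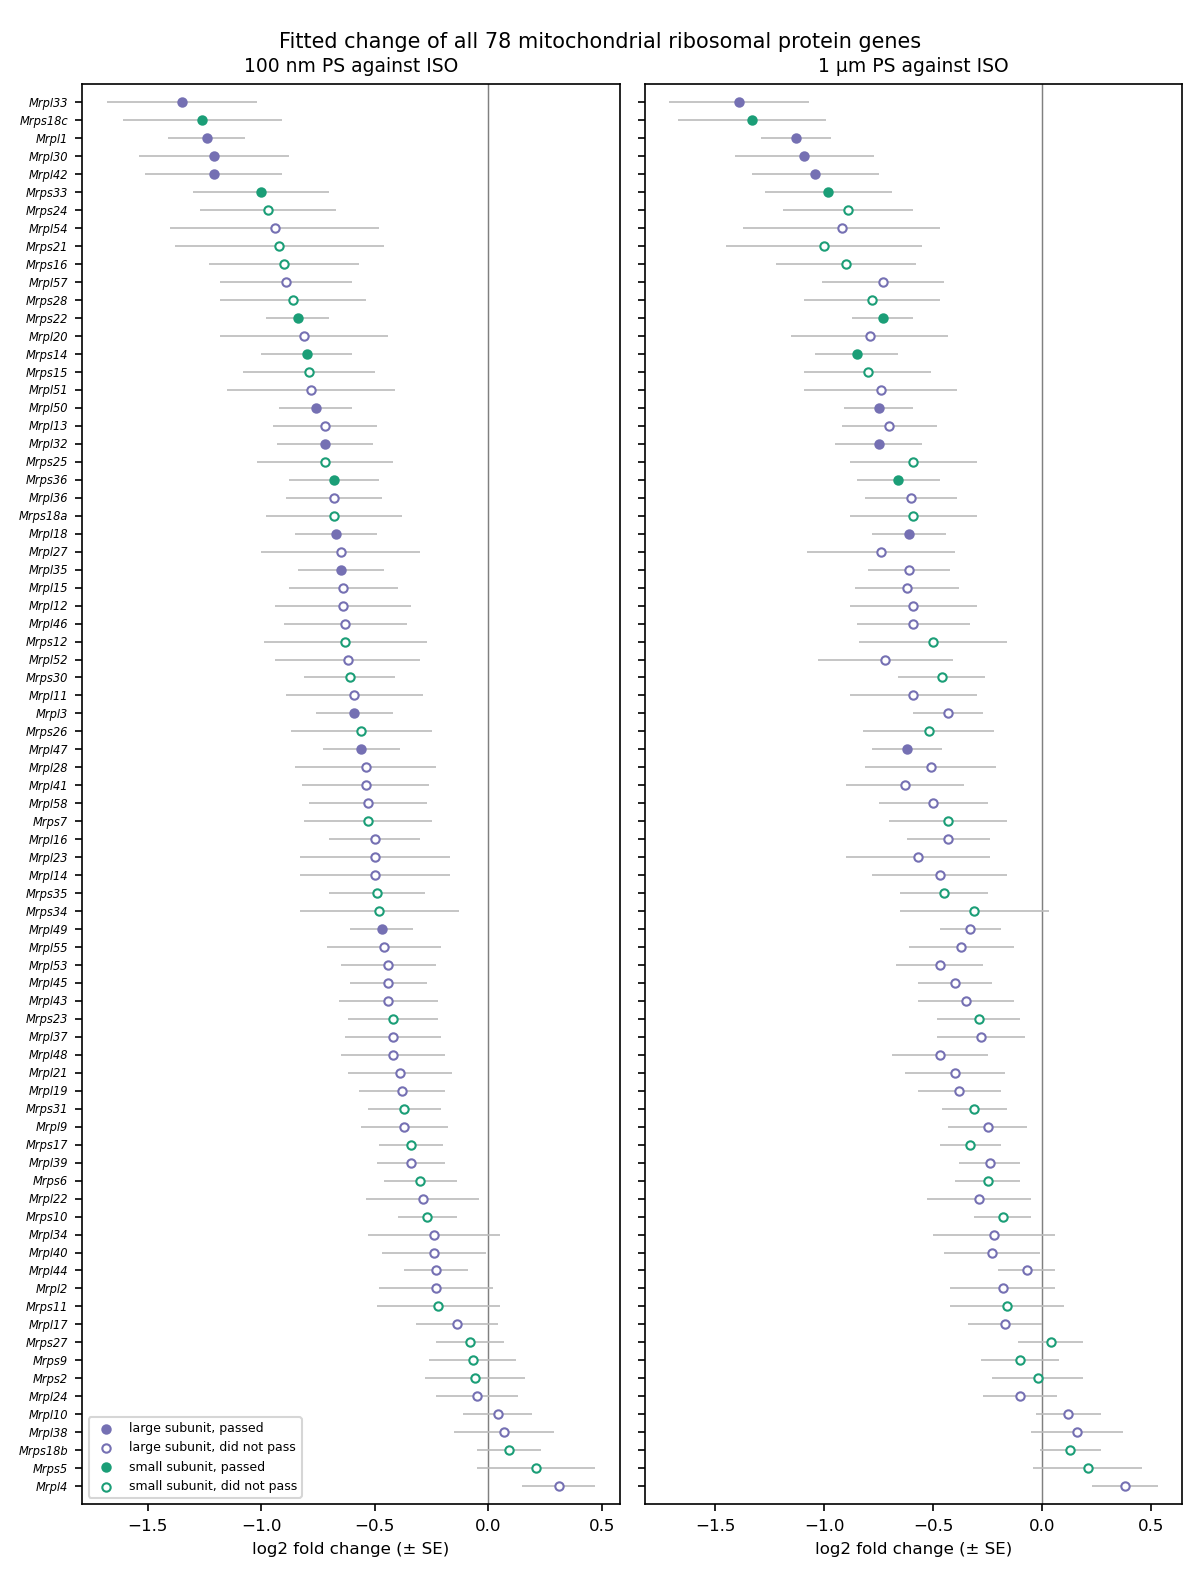
Fitted log2 fold change with its SE (horizontal axis) of each of the 78 genes (vertical axis, ordered by the change at 100 nm), at 100 nm on the left and at 1 µm on the right, with filled points for genes that passed and colours for the subunit in the gene's name. Most points lie left of 0, and the 5 genes right of 0 at 100 nm did not pass; the panels share the same 6 ISO libraries.

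The genes that fell at both sizes were Mrpl1, Mrpl18, Mrpl30, Mrpl32, Mrpl33, Mrpl42, Mrpl47, Mrpl50, Mrps14, Mrps18c, Mrps22, Mrps33 and Mrps36, 13 in all. Both comparisons use the same ISO libraries, so this overlap is no second observation. Mrpl3, Mrpl35 and Mrpl49 passed at 100 nm and not at 1 µm, where their log2 fold changes were −0.43 (SE 0.16, adjusted p = 0.0978), −0.61 (SE 0.19, adjusted p = 0.0569) and −0.33 (SE 0.14, adjusted p = 0.127). Mrpl3 and Mrpl49, with Mrpl44, had the smallest p of the 78 genes between the sizes, and none of the 3 passed there.

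Mrpl1, a protein of the mobile stalk through which the large subunit releases spent tRNA, had the smallest p of all 14623 genes at 100 nm and ranked 2 at 1 µm. In batch 1 it stood at 61.1, 71.6 and 38.8 CPM in ISO, at 19.7, 22.5, 26.3, 23.5 and 29.1 CPM in 100 nm PS, and at 24.1, 25, 26.4 and 27.5 CPM in 1 µm PS. In batch 2 it stood at 34.3, 20.4 and 27.2 CPM in ISO, at 11.3 CPM in 100 nm PS, and at 12.1 and 13.4 CPM in 1 µm PS. Within each batch every PS library was below every ISO library. The fitted change of Mrpl1 was −1.24 at 100 nm (SE 0.17, adjusted p = 0.00462 by edgeR's test) and −1.13 at 1 µm (SE 0.16, adjusted p = 0.00743), on the log2 scale.

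Mrps22, a small subunit protein whose inherited loss causes cardiomyopathy with lactic acidosis, showed the same separation. Its level was 15.2 to 33.0 CPM in ISO (median 20.2), 9.59 to 15.7 CPM in 100 nm PS (median 13.4) and 10.9 to 15.4 CPM in 1 µm PS (median 13.8). Over both batches the ranges overlap at 15.2 CPM, the lowest ISO library, of batch 2, while within each batch all PS libraries lay below all ISO libraries. The change of Mrps22 was −0.84 (SE 0.14, adjusted p = 0.0093, edgeR) at 100 nm and −0.73 (SE 0.14, adjusted p = 0.013) at 1 µm. Mrpl1 and Mrps22 kept an adjusted p under 0.05 in both comparisons when any single library was left out, with log2 fold changes from −1.36 to −1.04 for Mrpl1 and from −0.89 to −0.61 for Mrps22. Neither passed at either size after a GC correction of each library, with the replicate number as a term, or without the batch term. Nor did they pass at 1 µm with only the groups compared. No gene of all tested passed in those fits.

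Mrpl50, a protein of the large subunit found in mitochondria and not in bacteria, ranged from 26.7 to 63.1 CPM in ISO (median 43.6), from 19.1 to 42.7 CPM in 100 nm PS (median 30.1) and from 20.4 to 39.6 CPM in 1 µm PS (median 30.1). It was likewise lower in every PS library than in every ISO library of its batch, and changed by −0.76 (SE 0.16, adjusted p = 0.0146, edgeR) and −0.75 (SE 0.16, adjusted p = 0.0151). Leaving out 100 nm PS replicate 6, the only library of that group in batch 2, ended its call at 100 nm (adjusted p = 0.0566). Mrps14, a protein of the head of the small subunit, ranged from 48.8 to 118 CPM in ISO (median 57.3), from 31.9 to 49.7 CPM in 100 nm PS (median 44.9) and from 27.4 to 48.2 CPM in 1 µm PS (median 42.2). Its changes were −0.80 (SE 0.20, adjusted p = 0.0214) and −0.85 (SE 0.19, adjusted p = 0.0188), and the PS libraries lay below the ISO libraries within each batch apart from 100 nm PS replicates 3 and 5 (49.7 and 49.1 CPM), just above ISO replicate 3. Without 100 nm PS replicate 1 or replicate 6 its call at 100 nm was lost, with adjusted p up to 0.071.

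Separation within both batches, with all PS libraries below all ISO libraries, was seen for 5 of 78 genes at 100 nm (Mrpl1, Mrpl3, Mrpl50, Mrps22 and Mrps30), where 3.65% of all genes tested showed it, and for 5 of 78 at 1 µm (Mrpl1, Mrpl18, Mrpl50, Mrps14 and Mrps22), where 1.91% did. No gene of the 78 was separated upwards at either size, where 5.75% and 3.12% of all genes were. At 1 µm the change did not pass as different between the batches for any of the 78 genes, tested by edgeR with a batch-by-group term. How many of all genes passed that term was not counted. Batch 2 holds 1 library of 100 nm PS and 2 of 1 µm PS, so changes alike in both batches are not shown. Mrps30, whose product sits in the large subunit in spite of its name, was at 40.6 to 86.8 CPM in ISO and 26.7 to 42.3 CPM in 100 nm PS, with a log2 fold change of −0.61 (SE 0.20) that missed the threshold (adjusted p = 0.0616) and was −0.33 without ISO replicate 2.

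**Figure D2:**
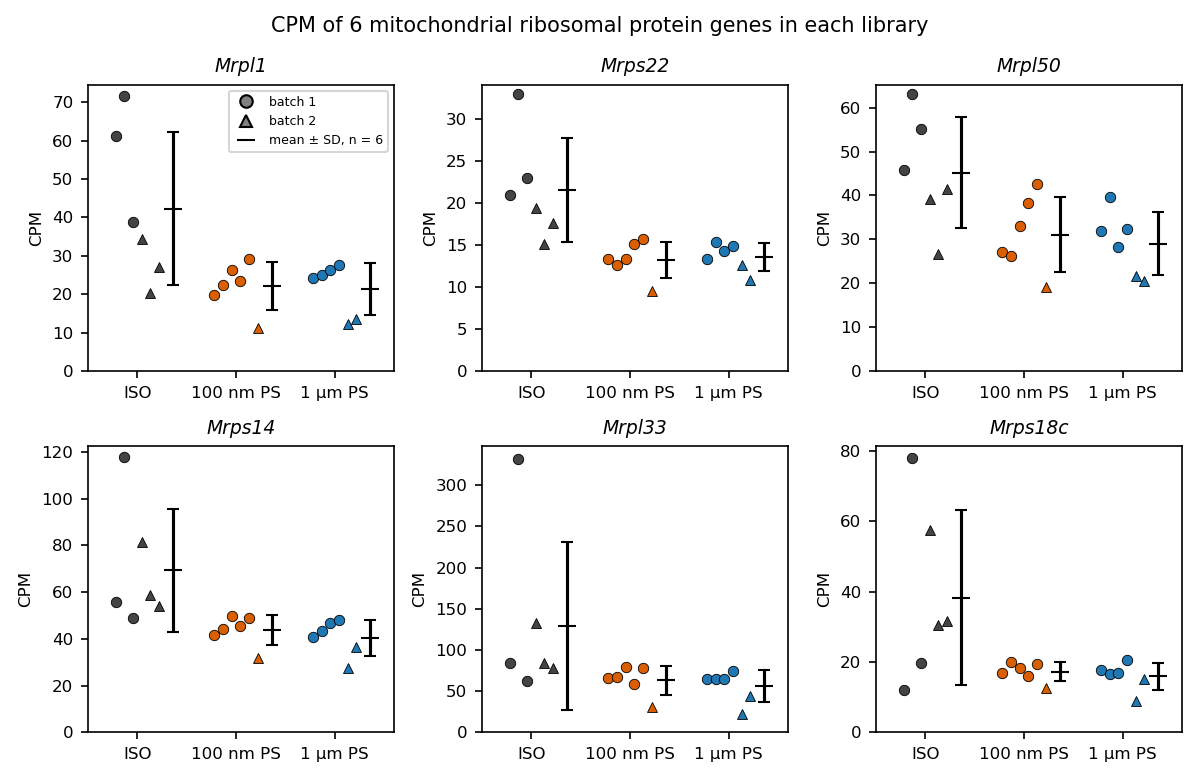
CPM (vertical axis, from 0) of 6 genes in each library by group, with circles for batch 1, triangles for batch 2, and the mean ± SD of 6 libraries beside each group. For Mrpl1, Mrps22 and Mrpl50 every PS library lies below the ISO libraries of its own batch; Mrpl33 has a single ISO library, replicate 2, far above the rest (332 CPM, next 133).

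Because Mrpl1 and Mrps22 led both comparisons, the promoter windows of both are shown (RefSeq, GRCm38.p6, 300 bases around each annotated start, written 5′ to 3′ on the gene's strand), together with that of Mrpl33, which had the largest fall. Mrpl1 lies on the plus strand at chr5:96209865-96210164, Mrps22 on the minus strand at chr9:98601630-98601929 and Mrpl33 on the plus strand at chr5:31613701-31614000. Capitals mark the letters CCGGAAG, read by GABP and other ETS factors, which are known to drive many nuclear genes for mitochondrial proteins.
Mrpl1: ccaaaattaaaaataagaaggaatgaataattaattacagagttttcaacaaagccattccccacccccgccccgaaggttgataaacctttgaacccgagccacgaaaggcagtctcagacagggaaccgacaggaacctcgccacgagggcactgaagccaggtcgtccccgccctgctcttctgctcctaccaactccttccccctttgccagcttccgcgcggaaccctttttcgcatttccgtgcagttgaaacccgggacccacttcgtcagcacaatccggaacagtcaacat
Mrps22: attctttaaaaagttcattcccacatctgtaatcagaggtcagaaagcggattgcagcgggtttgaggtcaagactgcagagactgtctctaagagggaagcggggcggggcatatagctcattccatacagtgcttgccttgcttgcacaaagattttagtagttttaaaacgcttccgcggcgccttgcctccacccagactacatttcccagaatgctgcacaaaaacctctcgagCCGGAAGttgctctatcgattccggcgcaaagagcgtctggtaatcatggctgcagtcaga
Mrpl33: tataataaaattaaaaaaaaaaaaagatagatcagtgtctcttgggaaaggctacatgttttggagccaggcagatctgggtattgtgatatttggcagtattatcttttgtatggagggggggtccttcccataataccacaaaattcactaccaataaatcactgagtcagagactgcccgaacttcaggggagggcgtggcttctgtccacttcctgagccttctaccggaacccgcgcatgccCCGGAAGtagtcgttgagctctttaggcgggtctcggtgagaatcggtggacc
The Mrpl1 window holds none of the 4 motifs searched, and the Mrps22 and Mrpl33 windows hold the GABP motif alone.

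Over the gene set, 69 of 78 genes matched the RefSeq table, with 75 windows. The GABP letters CCGGAAG, on either strand, stood in 34.7% of these windows, against 15.8% of the windows of all genes tested and 8.9% of all windows in the table. ATGGCGG, read by YY1, stood in 17.3% against 7.2% and 4.1%, and GCGCATGCG, read by NRF1, in 9.3% against 3.2% and 1.8%. The E-box CACGTG stood in 9.3% against 9.6% and 7.2%. None of the motif words is contained in another. Among the 16 windows of genes that passed in either comparison 37.5% held the GABP letters, and among the 59 windows of the others 33.9%. GC content had a median of 55.6% in the first and 60.3% in the second set of windows, and a match of letters does not show that a factor bound there.

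Among the other large subunit genes that fell, Mrpl33, a small protein kept from bacteria to mitochondria, had the largest fitted fall: −1.35 (SE 0.33, adjusted p = 0.0208, edgeR) at 100 nm and −1.39 (SE 0.32, adjusted p = 0.0194) at 1 µm. Its level was 62.3 to 332 CPM in ISO (median 84.4), 30.6 to 79.9 CPM in 100 nm PS (median 66.4) and 22.5 to 74.2 CPM in 1 µm PS (median 64.9). The 332 CPM belongs to ISO replicate 2, and the next ISO library stood at 133 CPM. Without ISO replicate 2 the change of Mrpl33 was −0.82 at 100 nm (adjusted p = 0.0638) and −0.92 at 1 µm (adjusted p = 0.0331). Mrpl42 and Mrpl30 had the same shape. Mrpl42 was at 176 to 930.0 CPM in ISO, 149 to 190.0 CPM in 100 nm PS and 146 to 207 CPM in 1 µm PS, and Mrpl30 at 118 to 658, 105 to 127 and 104 to 137 CPM. In both the top value is that of ISO replicate 2, and the other ISO libraries reached 298 CPM for Mrpl42 and 273 CPM for Mrpl30. Their changes at 100 nm were both −1.21 (SE 0.30 and 0.33), and −0.58 and −0.45 without that library, which ended the call of Mrpl30. At 1 µm they were −1.04 and −1.09, and −0.48 and −0.41 without it, where neither passed.

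Mrpl32, which a protease of the inner membrane must trim before it enters the ribosome, was at 14.7 to 44.2 CPM in ISO (median 24.8), 14.4 to 17.7 CPM in 100 nm PS and 14.8 to 18.1 CPM in 1 µm PS. ISO replicate 1, at the 14.7 CPM, lay at the foot of both PS ranges, and the other ISO libraries lay above them. Mrpl47, a protein near the exit of the nascent chain, was at 13.7 to 28.4 CPM in ISO, 10.2 to 14.8 CPM in 100 nm PS and 10.8 to 16.5 CPM in 1 µm PS. Mrpl18, of the central protuberance of the large subunit, was at 82.5 to 172 CPM in ISO, 55.7 to 99.6 CPM in 100 nm PS and 58.2 to 86.3 CPM in 1 µm PS. The changes of these 3 genes lay between −0.75 and −0.56 in both comparisons. Each lost its call when 1 of several libraries was removed, among them ISO replicate 4 for all 3 at both sizes.

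Mrpl3, a core protein of the large subunit and another cause of inherited cardiomyopathy, was at 67.4 to 127 CPM in ISO (median 84.8), 50.8 to 77.0 CPM in 100 nm PS (median 59.1) and 58.3 to 76.0 CPM in 1 µm PS (median 67.8). Its change at 100 nm was −0.59 (SE 0.17, adjusted p = 0.0343, edgeR). Fitted in batch 1 alone it was −0.83, and in batch 2 alone −0.16, and the call was lost on removing any 1 of 7 libraries, ISO replicates 2 and 4 among them. Mrpl44, which also underlies a cardiomyopathy, changed by −0.23 (SE 0.14, adjusted p = 0.273) and −0.07 (SE 0.13, adjusted p = 0.759) and did not pass. Mrpl12, of the stalk that recruits translation factors, had a wide ISO range of 87.7 to 519 CPM around PS values of 137 to 196 CPM. Its changes, −0.64 (SE 0.30) and −0.59 (SE 0.29), did not pass and became −0.10 and −0.11 without ISO replicate 2. Mrpl58, a peptidyl-tRNA hydrolase built into the large subunit, changed by −0.53 (SE 0.26) and −0.50 (SE 0.25), and Mrpl41 by −0.54 (SE 0.28) and −0.63 (SE 0.27), all 4 values short of the threshold. Mrpl58 was at −0.08 and −0.09, and Mrpl41 at −0.26 and −0.37, without ISO replicate 2.

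In the small subunit, the 3 Mrps18 genes, paralogs of one bacterial protein, differed in their values. Mrps18c fell at both sizes, with log2 fold changes of −1.26 (SE 0.35, adjusted p = 0.034, edgeR) at 100 nm and −1.33 (SE 0.34, adjusted p = 0.0282) at 1 µm. Mrps18a, whose product is placed in the large subunit, changed by −0.68 (SE 0.30, adjusted p = 0.142) and −0.59 (SE 0.29, adjusted p = 0.201), and by −0.06 and −0.02 without ISO replicate 2. Mrps18b changed by 0.09 (SE 0.14) and 0.13 (SE 0.14), and its sign turned at 100 nm when ISO replicate 2 was left out (−0.01); differences between the paralogs were not tested. Mrps18c was at 12.0 to 78 CPM in ISO, 12.7 to 19.9 CPM in 100 nm PS and 9.04 to 20.5 CPM in 1 µm PS, with ISO replicate 1 at the 12.0 CPM, below every batch 1 PS library, and ISO replicate 2 at the highest value. Without ISO replicate 2 its changes were −0.75 and −0.87, and neither passed.

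Mrps33 was at 18.0 to 106 CPM in ISO (median 79.1), 24.2 to 33.6 CPM in 100 nm PS (median 27.6) and 26.2 to 41.3 CPM in 1 µm PS (median 29.1). Its changes were −1.0 (SE 0.30, adjusted p = 0.0425) and −0.98 (SE 0.29, adjusted p = 0.0443), −0.73 and −0.66 in batch 1 alone and −1.39 and −1.40 in batch 2 alone. Removing any 1 of 14 libraries at 100 nm, or of 15 at 1 µm, ended its call. Mrps36, which kept its ribosomal name although its protein is now known as a subunit of the 2-oxoglutarate dehydrogenase complex, was at 51.7 to 125 CPM in ISO, 48.0 to 63.6 CPM in 100 nm PS and 47.1 to 59.0 CPM in 1 µm PS. Its calls (−0.68, adjusted p = 0.0419, and −0.66, adjusted p = 0.0452) were lost on removing 15 and 16 of the 18 libraries, one at a time. Mrps12, of the decoding centre, changed by −0.63 (SE 0.36) and −0.50 (SE 0.34) and did not pass, and was at −0.03 and 0.01 without ISO replicate 2. Mrps21 was among the 3 highest genes per length, at 194 CPM per kb of transcript over all libraries. Its changes of −0.92 (SE 0.46) and −1.0 (SE 0.45) did not pass and became −0.09 and −0.26 without ISO replicate 2, and it ran from 13.9 CPM in ISO replicate 1 to 337 CPM in ISO replicate 2.

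The 5 genes with a fitted change above 0 at 100 nm were Mrpl4, Mrps5, Mrps18b, Mrpl38 and Mrpl10, and none passed. Mrpl4, which lines the exit tunnel, was highest, at 0.31 (SE 0.16, adjusted p = 0.202) and 0.38 (SE 0.15, adjusted p = 0.119). It stood at 44.3 to 114 CPM in ISO, 68.4 to 112 CPM in 100 nm PS and 81.8 to 123 CPM in 1 µm PS, with ISO replicate 2 the lowest of all 18 libraries. Without ISO replicate 3 its change at 1 µm was 0.49 and passed (adjusted p = 0.0425, edgeR). Mrps5, at the entry of the message, changed by 0.21 (SE 0.26 and 0.25) at both sizes, with ISO replicate 1 at 6.22 CPM and the other ISO libraries at 25.6 to 49.7 CPM. Mrpl38 changed by 0.07 (SE 0.22) and 0.16 (SE 0.21), and Mrpl10, of the factor-binding stalk, by 0.04 (SE 0.15) and 0.12 (SE 0.15). All 5, Mrpl4 included, turned below 0 in at least 1 of the comparisons under another setting, so that no direction is given for them.

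Genes that fell were found among both low and high levels. Per kb of transcript, Mrpl42 was highest at 352 CPM, followed by Mrps21 and then Mrpl33 at 173 CPM, and Mrpl47 (4.69 CPM), Mrpl19 (5.71 CPM) and Mrpl32 (6.59 CPM) were lowest. Split into tertiles of 26 genes by this level, 9, 2 and 5 genes fell at 100 nm from the lowest to the highest tertile, and 6, 2 and 5 at 1 µm. The length used is that of the longest annotated coding transcript, and which transcripts the hearts expressed was not tested. It was 3364 bases for Mrpl47, 5000 for Mrpl19 and 3013 for Mrpl32, against 666 for Mrpl42 and 478 for Mrpl33. The order therefore also reflects annotated length. Mrpl19, which did not pass, had log2 fold changes of −0.38 (SE 0.19) at both sizes, and −0.08 and −0.11 without ISO replicate 2.

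Between the particle sizes none of the 78 genes passed, and 0% of all genes tested did. By edgeR 0 of the 78 genes and 49 of all genes had an unadjusted p under 0.05, and DESeq2 likewise passed none of the 78. The log2 fold changes of 1 µm against 100 nm PS ran from −0.10 to 0.17 with a median of 0.04 (all genes 0.01), and their SEs from 0.13 to 0.44. Mrpl44 (0.16, SE 0.13), Mrpl49 (0.14, SE 0.14) and Mrpl3 (0.16, SE 0.16) had the smallest p. Each of these 3 differences was about the size of its SE. These SEs draw on the spread of all 3 groups, ISO included, which was wider in ISO. Of all genes, 0.335% had an unadjusted p under 0.05 in this edgeR fit. With only the PS groups fitted the share was 1.98%, and no gene passed. A difference that did not pass is not shown to be absent.

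How far the whole set differed rested on single ISO libraries. Averaged over the 78 genes, log2 CPM was 5.77 ± 0.59 in ISO (SD, n = 6; lowest 4.85, highest 6.56), 5.36 ± 0.11 in 100 nm PS (5.21 to 5.51) and 5.40 ± 0.06 in 1 µm PS (5.31 to 5.49). Every PS library lay inside the ISO range over both batches, which ISO replicates 1 and 2 of batch 1 set. Within batch 2 the PS libraries (5.36, 5.37 and 5.45) lay below the ISO libraries (5.72, 5.9 and 6.12). Within batch 1 the ISO libraries stood at 4.85, 6.56 and 5.46, against 5.21 to 5.51 in PS, so that only ISO replicate 2 lay above the PS libraries. Summed, the 78 genes took 2848 CPM in ISO replicate 1, 10619 CPM in ISO replicate 2, 4046 CPM in ISO replicate 3 and 4883 to 6655 CPM in the 3 ISO libraries of batch 2, against 3409 to 4179 CPM in the 12 PS libraries. ISO replicate 2 was the highest of the 12 batch 1 libraries for 69 of the 78 genes (88.5%, all genes 26.7%), among them all 16 that fell at 100 nm. ISO replicate 1 was the lowest for 49 of the 78 (62.8%, all genes 23.2%). In batch 2, ISO replicate 4 was the highest of 6 for 56 genes (71.8%, all genes 24.8%).

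**Figure D3:**
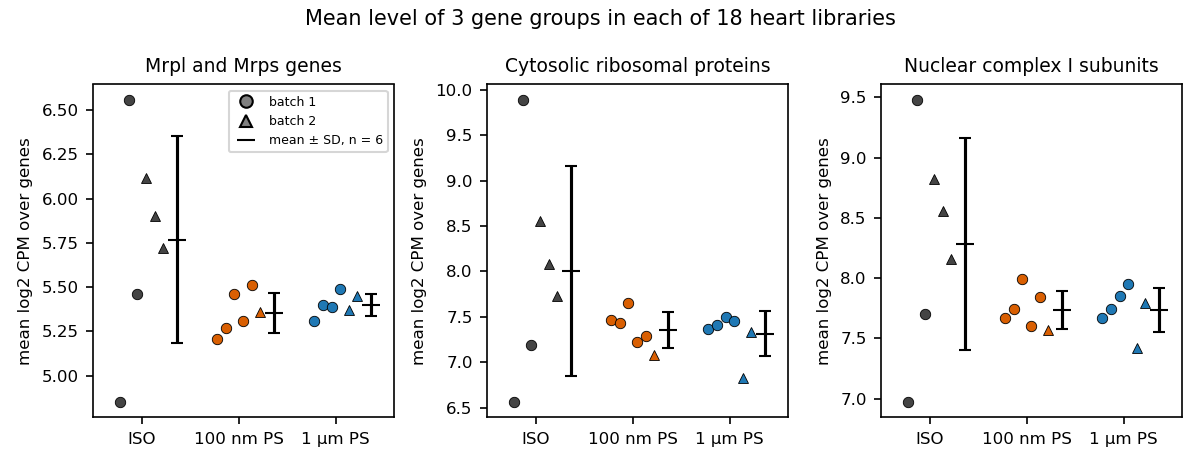
Mean log2 CPM (vertical axis, not from 0) over the 78 genes, the cytosolic ribosomal protein genes and the nuclear complex I genes in each of 18 libraries by group, with circles for batch 1, triangles for batch 2 and the mean ± SD of 6 libraries. In all 3 panels ISO spreads far wider than either PS group, with ISO replicate 2 on top and ISO replicate 1 at the bottom.

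Left out in turn, these libraries moved the result in opposite directions. Without ISO replicate 1, 50 of the 78 genes fell at 100 nm and 43 at 1 µm, with medians of −0.73 and −0.68, where 8.81% and 7.97% of all genes passed as lower. Without ISO replicate 2, 6 fell at 100 nm (Mrpl1, Mrpl42, Mrpl49, Mrpl50, Mrps14 and Mrps22) and 7 passed at 1 µm (Mrpl1, Mrpl32, Mrpl33, Mrpl47, Mrpl50, Mrps14 and Mrps22), all of them among those named above, where 9.04% and 8.56% of all genes passed as lower. The medians were −0.16 and −0.17, and 63 and 61 of the 78 genes remained below 0. Without both, 8 and 14 genes fell, with medians of −0.38 and −0.34 (all genes lower 2.66% and 4.37%). ISO replicate 4 counted as well: without it 6 genes passed at 100 nm and 5 at 1 µm (all genes lower 3.57% and 1.76%). At 100 nm the count was 2 without 100 nm PS replicate 6 (all genes lower 0.789%).

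**Figure D4:**
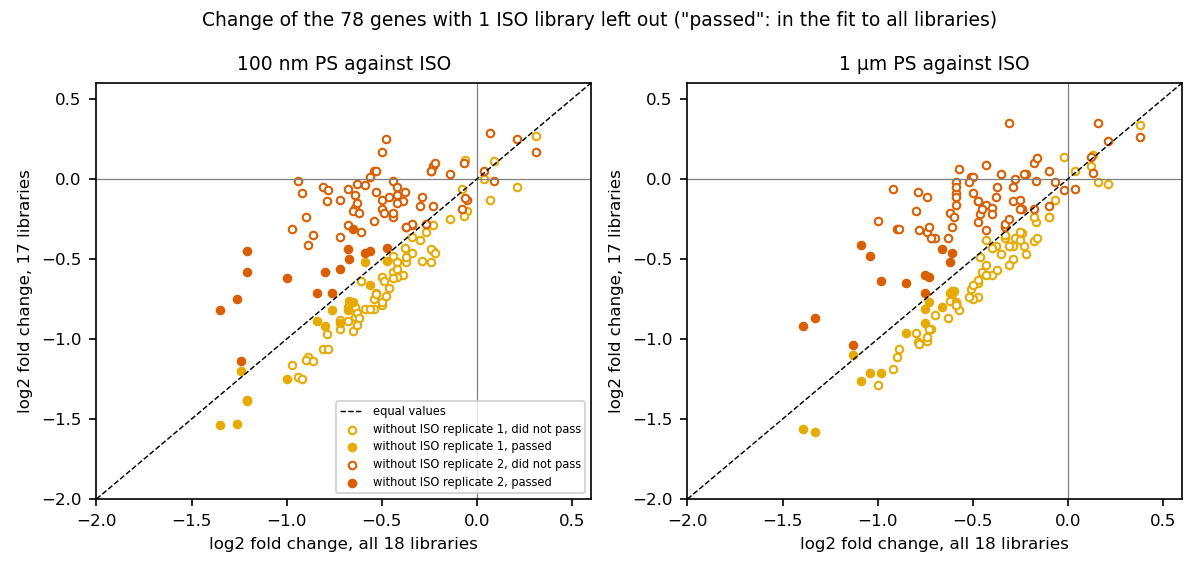
Log2 fold change of the 78 genes fitted to all 18 libraries (horizontal axis) against that fitted to 17 (vertical axis), without ISO replicate 1 in yellow and without ISO replicate 2 in orange, with filled points for genes that passed in the fit to all libraries and a dashed line of equal values. Without ISO replicate 2 the points rise towards 0 (medians −0.16 and −0.17), and without ISO replicate 1 most fall below the dashed line (medians −0.73 and −0.68).

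The genes that fell had messages of lower GC content. The transcripts of the 16 that fell at 100 nm had a median GC content of 45.0% (39.6 to 50.1%), against 52.0% for the 62 others, and those of the 13 at 1 µm 44.6% against 51.6%. By tertiles of GC content, 14 of 26, 2 of 26 and 0 of 26 genes fell at 100 nm from the lowest to the highest tertile, and 12, 1 and 0 at 1 µm. All genes tested followed GC content too. In the GC range of the lowest tertile 529 of 4475 genes fell at 100 nm and 6 rose, with a median of −0.28, and in that of the highest tertile 49 of 4956 fell and 409 rose, with a median of 0.26. The set lay below all genes in each range: its medians at 100 nm were −0.70, −0.48 and −0.49 against −0.28, −0.01 and 0.26, and at 1 µm −0.64, −0.42 and −0.45 against −0.27, 0.04 and 0.30. After each library was corrected for GC content the medians of the set were −0.79 and −0.73 (all genes −0.15 and −0.10). None of the 78 and none of all genes then passed in edgeR's test, and 66 and 53 of the 78 had an unadjusted p under 0.05, as did 27.1% and 20.2% of all genes. With the correction and without ISO replicate 2 the medians were −0.25 and −0.21.

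**Figure D5:**
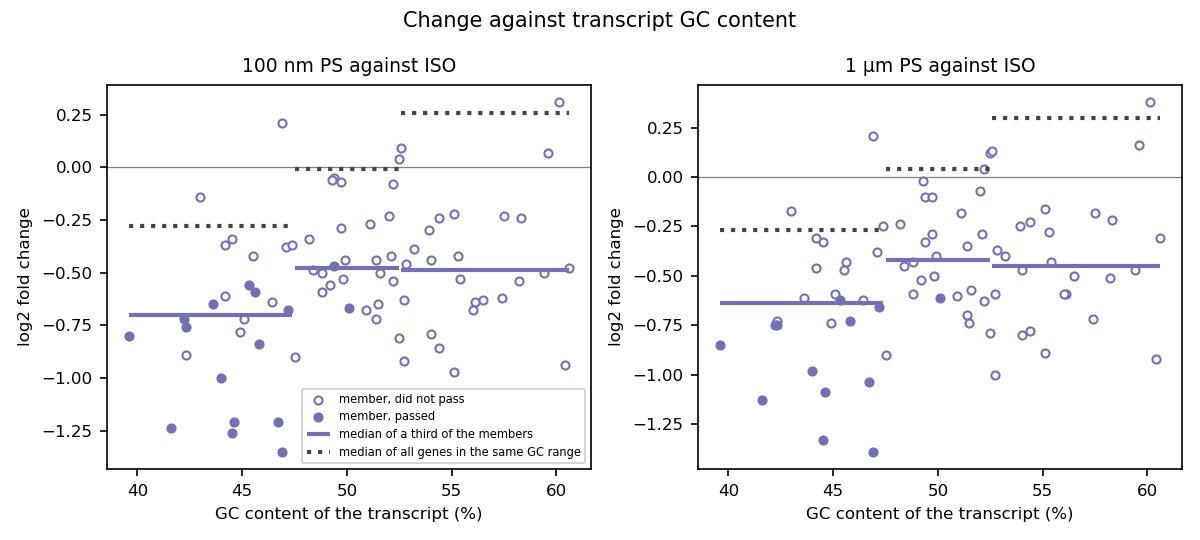
Log2 fold change of the 78 genes (vertical axis) against the GC content of the longest transcript in percent (horizontal axis), filled where the gene passed, with the median of each tertile of the 78 (solid lines) and of all genes tested in the same GC range (dotted lines). Filled points lie at 39.6 to 50.1% GC, and the solid lines lie under the dotted ones in every tertile.

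Length was set beside GC content. In the tertile of the 78 genes with the shortest transcripts (463 to 1060.0 bases) the median was −0.64 at 100 nm, against −0.51 for all genes of those lengths, and in the tertile with the longest (1960.0 to 7300.0 bases) −0.58 against 0.04. The parts of GC content and length in the falls were not tested.

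Genes that work with the mitochondrial ribosome were counted in the same way, beside the 5.69% and 4.5% of all genes that passed as lower, and several of these lists are too short for their share to be read against that. Of 5 ribosomal proteins with other names, Chchd1 fell at both sizes (−1.37, SE 0.40, adjusted p = 0.0418, and −1.32, SE 0.39, adjusted p = 0.0474, edgeR), and Ptcd3 at 100 nm (−0.74, SE 0.23, adjusted p = 0.0495). Chchd1 was at 22.3 to 257 CPM in ISO, with the 257 CPM in ISO replicate 2, and at 26.8 to 54.2 CPM over the PS libraries, and without that library it was at −0.56 and −0.59 and did not pass. Of 15 translation factors tested, 2 fell at both sizes and none rose. These were Mtrf1, a release factor (−1.02, SE 0.23, and −0.92, SE 0.23), and Slirp, a partner of Lrpprc in keeping mitochondrial messages stable (−1.95, SE 0.48, and −1.78, SE 0.46). Slirp was at 14.2 to 237 CPM in ISO, again with the highest in ISO replicate 2, and without that library at −0.96 (adjusted p = 0.16) and −0.88 (adjusted p = 0.177). Mtrf1 passed without it, at −0.71 and −0.66. The medians of that list were −0.21 and −0.06. Of 25 genes for ribosome assembly and rRNA modification 1 fell at each size, 4.0% of the list, and none rose. It was Fastkd2, an RNA-binding protein of the large subunit's assembly (−0.94, SE 0.23, and −0.76, SE 0.22). Gtpbp10, a GTPase of the same process, was at −0.63 (SE 0.23, adjusted p = 0.0821) and −0.70 (SE 0.22, adjusted p = 0.0569). Of 17 mitochondrial aminoacyl-tRNA synthetases, Lars2 (−1.48, SE 0.41, adjusted p = 0.0343) and Yars2 (−0.66, SE 0.19, adjusted p = 0.0351) fell at 100 nm and none passed at 1 µm. With ISO replicate 2 left out, the change of Lars2 at 100 nm was −0.92 (adjusted p = 0.0733).

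Of 14 genes of mitochondrial transcription and its regulators 4 fell at each size and none rose. Mterf2, a DNA-binding protein of the mitochondrial genome, was at −1.05 (SE 0.19, adjusted p = 0.0093) and −0.85 (SE 0.18, adjusted p = 0.0157). Tfb2m, which melts the promoter for the mitochondrial RNA polymerase, was at −0.99 (SE 0.19, adjusted p = 0.0112) and −0.75 (SE 0.19, adjusted p = 0.0262). Tefm, the elongation factor, and Gabpa, which binds the CCGGAAG letters shown above, were the other two: Tefm was at −0.66 (SE 0.15) and −0.50 (SE 0.14), and Gabpa at −0.50 (SE 0.15) and −0.61 (SE 0.14). Nrf1 (0.14 and 0.16, SE 0.14 in each) did not pass. Ppargc1a, the coactivator that raises mitochondrial gene programmes, did not pass either, at −0.65 (SE 0.24) and −0.58 (SE 0.23). Mterf2, Tfb2m, Tefm and Gabpa passed at both sizes without ISO replicate 2, with changes from −1.09 to −0.45.

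The RNA of the mitochondrial ribosome, which is transcribed from the mitochondrial genome, was lower as well. The small rRNA mt-Rnr1 was at 2526 to 24622 CPM in ISO, 1267 to 3175 CPM in 100 nm PS and 832 to 2966 CPM in 1 µm PS, and the large rRNA mt-Rnr2 at 4612 to 35559, 2676 to 6575 and 1563 to 5635 CPM. Both peaks are in ISO replicate 2, and the other 5 ISO libraries reached 5976 CPM for mt-Rnr1 and 20859 CPM for mt-Rnr2. The changes were −1.87 (SE 0.43, adjusted p = 0.0181) and −1.86 (SE 0.42, adjusted p = 0.0194) for mt-Rnr1, and −1.72 (SE 0.35, adjusted p = 0.0117) and −1.75 (SE 0.34, adjusted p = 0.0132) for mt-Rnr2. With ISO replicate 2 left out they were −0.99 and −1.08 for mt-Rnr1 and −1.33 and −1.39 for mt-Rnr2, and all 4 passed. The libraries were selected for poly(A), so these counts reflect the captured fraction. Of the 13 proteins encoded in mitochondria 2 fell at each size (all genes lower 5.69% and 4.5%), with list medians of −0.74 and −0.72. In this list ISO replicate 1 was the highest ISO library and ISO replicate 2 the lowest (mean log2 CPM 13.54 and 11.18). Without ISO replicate 2, 5 and 7 fell (all genes lower 9.04% and 8.56%). Without ISO replicate 1, 2 fell at each size, with medians of −0.36 and −0.47 (all genes lower 8.81% and 7.97%). Without both, 1 fell at each size (all genes lower 2.66% and 4.37%).

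Calls among other ribosomal and mitochondrial genes also went downwards. Of 80 cytosolic ribosomal protein genes tested 27 fell at each size, with medians of −1.25 and −1.22, and of 40 nuclear complex I genes 8 fell at each size, with medians of −0.86 and −0.84, where 5.69% and 4.5% of all genes passed as lower. Leaving out ISO replicate 2, the cytosolic counts were 2 and 3 (medians −0.32 and −0.39) and the complex I counts 3 and 5 (medians −0.28 and −0.31), where 9.04% and 8.56% of all genes passed as lower. The mean level of both groups in each PS library lay inside the ISO range over both batches. Within batch 2 the PS libraries lay below the ISO libraries. Mean log2 CPM was there 6.83 to 7.33 against 7.73 to 8.56 for the cytosolic genes, and 7.42 to 7.79 against 8.16 to 8.82 for complex I. Within batch 1 only ISO replicate 2 lay above the PS libraries. For the cytosolic genes the batch 1 ISO libraries stood at 6.56, 9.89 and 7.19, against 7.22 to 7.65 in PS. For complex I they stood at 6.97, 9.48 and 7.7, against 7.6 to 7.99 in PS. In these groups, too, ISO replicate 2 was the highest and ISO replicate 1 the lowest library, as the plot of mean levels by library shows. Differences between the 78 genes and these groups were not tested.

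Some of the counts are uncertain for reasons of sequence. In the GENCODE M21 annotation 33 of the 78 genes share exon bases with another gene, 28 with one on the opposite strand, and whether counting used strand is not stated. Of the 16 genes that passed 6 are among them: Mrpl3, Mrpl18, Mrpl33, Mrpl47, Mrpl49 and Mrps18c. Mrpl47 shares exon bases with both Actl6a and Ndufb5, a complex I gene, Mrpl18 with Tcp1, and Mrpl49 with Syvn1. Pseudogenes are listed for Mrpl23, Mrpl27, Mrpl48 and Mrps36. Mrpl23-ps1 held 4 to 262 counts in batch 1 and 692 to 1503 in batch 2, so that Mrpl23 (−0.50, SE 0.33, and −0.57, SE 0.33, neither passed) cannot be compared between batches. Its sign turned without ISO replicate 2, to 0.17 and 0.06. Without these 4 genes 15 of 74 fell at 100 nm and 12 of 74 at 1 µm, with medians of −0.53 and −0.47.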

How the data were processed

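Poly(A) RNA of 18 hearts was sequenced as paired ends by Novogene (batch 1, 12 libraries) and Majorbio (batch 2, 6), per the labels' protocols. The deposited batch 1 table holds raw counts per gene. The deposited batch 2 table holds estimated counts, 19.6% of whose nonzero values are not whole, and they were rounded. Tools named in the submitters' processing notes are DESeq2, featureCounts 1.5.0-p3, StringTie 1.3.3b, HISAT2 2.0.5 and fastp, with the builds GRCm39 and mm39. Roles and strand settings are not given in the sources used here. Batch 1 entries without a gene name (215, at most 0.39% of a library) were left out. The tables were joined by Entrez and Ensembl pairs (22145 genes) or by symbol (13415). Joined genes hold 98.9% to 99.5% of batch 1 counts. In batch 2 they hold 85.2% to 87.4% in ISO and 93.1% to 95.8% in PS.

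In R 4.3.3, edgeR 4.0.16 (TMM, filterByExpr with a minimum count of 10, robust quasi-likelihood fit on group and batch, 14 residual degrees of freedom) tested 14623 genes, after a test on simulated data. An SE is the change divided by the square root of F, and a prior count of 2 was added for log2 CPM. GC content and length come from the longest GENCODE M21 coding transcript, or the longest transcript of a gene without a coding one. A GC content was found for 99.8% of tested genes. The GC correction fits a spline with 5 degrees of freedom to every library's log2 CPM less the mean of its batch. Alternatives were other scaling (RLE), filters (none, or 1 CPM in 6 libraries), DESeq2 1.42.0, limma 3.58.1 voom, no batch term, 1 batch, the compared groups alone, a replicate block, an adjusted p under 0.1, the GC correction, and libraries left out. The GC correction without ISO replicate 2, and the lists without ISO libraries, were chosen after seeing the data. p-values measure the spread between mice, 1 library each, estimated per gene over all 3 groups together. The groups were unequal in spread. Mean log2 CPM over the 78 genes had SDs of 0.59 (ISO), 0.11 (100 nm PS) and 0.06 (1 µm PS). Calls against ISO thus also draw on the group not compared. With only the groups compared, 2.61% of all genes passed at 100 nm and 0% at 1 µm, against 9.57% and 7.39%.

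The genes and lists were chosen with earlier results of these data known. Genes given with values are 13 of known roles, the 8 smallest p and the 3 largest changes each way per comparison with ISO, the 3 highest and 3 lowest levels per length, and the 3 smallest p between sizes. From each pathway list these are the 2 smallest p per comparison. Mrps33, Mrpl35 and Mrpl23, and of the lists Tefm, Nrf1 and Ppargc1a, fall outside this rule and were named after their values were seen.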

Additional observations from a re-analysis of the deposited data

Results flagged for a closer look

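For the 28 genes given with values and for their mean, a library was looked for in each group whose gap to its neighbour took up more of the group's range than 6 values usually allow. For 6 values of 1 kind chance gives about 1 in 20 such groups, and 8 of the 87 looked at had one. Each group here mixes 2 batches, and the 87 share the same libraries, so that rate need not hold. ISO replicate 2 was set off upwards for Mrpl42 (930.0 CPM, next 298), Mrpl30 (658 CPM, next 273) and Mrpl33 (332 CPM, next 133). In 100 nm PS, replicate 6, the only batch 2 library of its group, was set off upwards for Mrps18a (66.5 CPM, next 50.7), Mrps18b (49.3 CPM, next 26.9) and Mrps5 (46.2 CPM, next 29.3), and replicate 3 for Mrps36 (63.6 CPM, next 53.3). In 1 µm PS, replicate 5, of batch 2, was set off upwards for Mrpl10 (81.6 CPM, next 52.2).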

How the results depend on the processing

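The 0 calls between particle sizes stood under all alternatives run. The counts of falling genes (16 at 100 nm, 13 at 1 µm) became 7 and 6 with no filter, 25 and 21 with limma voom, and 25 and 21 at an adjusted p under 0.1. They were 6 and 2 in batch 1 alone, 0 and 0 in batch 2 alone (23 and 33 at an unadjusted p under 0.05 in edgeR), 2 and 0 with only the groups compared (27 and 30 unadjusted), and 0 and 0 without a batch term (48 and 35 unadjusted). With the GC correction they were 0 and 0, also without ISO replicate 2 (21 and 19 unadjusted). Without ISO replicates 1 and 2 the count at 100 nm was 8. RLE scaling gave 19 and 13, the stricter filter 19 and 13, and DESeq2 24 and 19. The share of all genes that passed moved too, from 9.57% and 7.39% to 3% and 2.02% with no filter. It was 10.4% and 8.29% with RLE scaling, 11% and 8.9% with the stricter filter, and 14.9% at both sizes with voom. DESeq2 gave 17.8% and 15.9%, and an adjusted p under 0.1 gave 18.1% and 15.9%. In batch 1 alone the share was 7.52% and 3.96% (4.51% and 2.27% as lower), and with only the groups compared 2.61% and 0%. At an unadjusted p under 0.05 it was 10% and 21.8% in batch 2, 24.7% and 19.6% with only the groups compared, 18.9% and 16.1% without a batch term, and 15.5% and 10.6% with the GC correction and without ISO replicate 2. With 1 library left out the counts ran at 100 nm from 2, when 100 nm PS replicate 6 was removed, to 50, when ISO replicate 1 was, and from 5 to 43 at 1 µm. The median at 100 nm ran from −0.73 to −0.16, the latter without ISO replicate 2. Without ISO replicate 3, 25 genes passed at 100 nm and 22 at 1 µm, where 15.4% and 15.7% of all genes passed. Of the 22, 21 were lower and 1, Mrpl4, was higher (0.49, adjusted p = 0.0425, edgeR). The cause of these shifts was not tested.

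With the replicate number as a replicate block the counts were 0 and 0 (22 and 23 unadjusted, all genes 19.3% and 19.7%), at medians of −0.42 and −0.38. Same-numbered libraries showed little common deviation (3 of 18 pairs correlated above 0.1, range −0.44 to 0.23). Differently numbered libraries were not compared in this way, and some same-numbered libraries lie in different batches. The check therefore cannot tell whether the numbers pair the samples.

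Signs turned for genes that had not passed. At 100 nm Mrpl10 was at −0.09 with no batch term and in batch 1 alone, 0.00 with only the groups compared and without ISO replicate 1, −0.21 with the GC correction and −0.11 with it and without ISO replicate 2. At 1 µm it was at −0.07 in batch 1, −0.12 with the GC correction, −0.03 with it and without ISO replicate 2, and −0.02 without 1 µm PS replicate 5. Mrpl38 at 100 nm was at −0.16 with no batch term, −0.54 and −0.12 with the GC correction with and without ISO replicate 2, and −0.13 without ISO replicate 1, and at 1 µm at −0.42, −0.04 and −0.02 for the last 3. Mrpl4 was at −0.29 and −0.18 with the GC correction and −0.31 and −0.21 with it and without ISO replicate 2. Mrps18b at 100 nm was at −0.39 with no batch term, −0.15 and −0.19 with the GC correction with and without ISO replicate 2, −0.01 without ISO replicate 2 and −0.03 without ISO replicates 1 and 2. At 1 µm it was at −0.13 with no batch term, −0.04 in batch 2, and −0.10 and −0.14 with the GC correction. Mrps5 at 100 nm was at −0.14 with no batch term, −0.05 without ISO replicate 1 and −0.11 without ISO replicates 1 and 2, and at 1 µm at −0.03 in batch 2 and without ISO replicate 1 and −0.08 without both. Mrpl19 was at 0.04 and 0.01 and, at 1 µm, Mrps30 at 0.08 with the GC correction and without ISO replicate 2. At 1 µm Mrpl44 was at 0.03 in batch 2 and Mrps12 at 0.01 without ISO replicate 2. Where leaving out 1 library turned a sign, the full ranges at 100 nm were 0.00 to 0.16 for Mrpl10, −0.13 to 0.29 for Mrpl38, −0.01 to 0.13 for Mrps18b and −0.05 to 0.40 for Mrps5. At 1 µm they were −0.02 to 0.23 for Mrpl10, −0.02 to 0.35 for Mrpl38, −0.75 to 0.01 for Mrps12 and −0.03 to 0.38 for Mrps5. Mrpl23 turned to 0.17 and 0.06 without ISO replicate 2.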
